A study of Homo sapiens with 5 samples.

Results

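The genes described here are the VEGF ligands VEGFA, VEGFB and VEGFC, the receptor tyrosine kinases FLT1, KDR and FLT4, and the neuropilin co-receptors NRP1 and NRP2. They were taken by gene name, and all 8 were found among the 27992 gene names of the count table and the 24519 of the TPM table, a unit of transcripts corrected for length. RNA was sequenced from U2OS, a human osteosarcoma cell line, in 5 libraries with 1 library per group. The parental library came from U2OS cells without the construct. The other 4 came from U2OS pTRIPZ-YFP-ER-E2F1 cells, parted by flow cytometry on YFP brightness into fractions named YFP-negative, YFP-low, YFP-medium and, as the brightest, YFP-high. These cells carry E2F1, a transcription factor of S-phase entry, fused to YFP and to an oestrogen receptor part (ER). The pTRIPZ vector has a doxycycline-inducible promoter, and OHT binds the ER part. Per the labels, all 5 groups, parental cells included, received 500 ng/ml doxycycline for 48 h and then 90 nM 4-hydroxytamoxifen (OHT) for another 20 h, in medium with 8% serum. The sources used here do not say whether the construct line is 1 clone or whether parental cells were also sorted. The question behind the design is how cells respond to different amounts of E2F1.

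VEGF ligands are secreted dimers that bind receptor tyrosine kinases best known from blood and lymphatic endothelium. VEGFA signals mainly through KDR and binds FLT1, VEGFB binds FLT1, and VEGFC binds FLT4 and, once fully processed, KDR. Neuropilins lack a kinase and present these ligands to the kinases, and they also serve as receptors of class 3 semaphorins together with plexins. VEGF ligands are commonly secreted by osteosarcoma cells, whereas the kinases are mostly studied in endothelium.

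Depth was 70.7 M to 76.5 M gene reads per library. E2F1 itself stood at 86.1 CPM (counts scaled to 1000000 reads) in parental cells and, along the fractions, 106 CPM (negative), 163 CPM (low), 361 CPM (medium) and 996 CPM (high), and the counts do not part the construct from the cell's own gene. Among osteoblast markers, RUNX2 and COL1A1 were present in all 5 libraries, at no less than 32.5 and 750 CPM. COL1A1 was highest in parental cells, at 3271 CPM. COL1A2 had only 16 to 31 reads per library, and SP7, BGLAP and IBSP had at most 7 reads in any library. Analysis was limited to the 15109 genes that reached 1 CPM somewhere among the 5 libraries. A gene counts as called, higher or lower, where its log2 ratio, with 0.5 CPM added to both levels, lay past 2-fold and the exact 95% counting interval of the fold excluded 1. The fold itself carries no added CPM. A single library per group gives no spread to test against, and intervals cover counting error only.

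Of the 8 genes, 4 were higher in YFP-high than in YFP-negative cells (VEGFC, KDR, FLT4 and NRP1) and 0 were lower. VEGFA, VEGFB and FLT1 passed in neither direction, and NRP2 lay below the filter. KDR passed the filter through the YFP-high library alone. Among all analysed genes, 20.5% were called higher and 11.3% lower in this comparison, 31.7% in all. Of these calls 64.4% were higher ones, and 45.7% with libraries scaled to their total counts, a scaling under which the median gene's log2 ratio shifts by -0.26 relative to the trimmed mean of M values (TMM) used here. In YFP-medium against YFP-negative cells 2 of the 8 were higher, VEGFC and FLT4, and 0 lower, with 9.76% of all genes called higher and 2.21% lower, 12.0% in all. There 81.5% of all calls were higher ones, and 58.0% with total counts, which shifts the median gene by -0.21. In YFP-low against YFP-negative cells 0 of the 8 were called, against 2.11% of all genes called higher and 0.0463% lower, 2.16% in all.

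**Figure D1:**
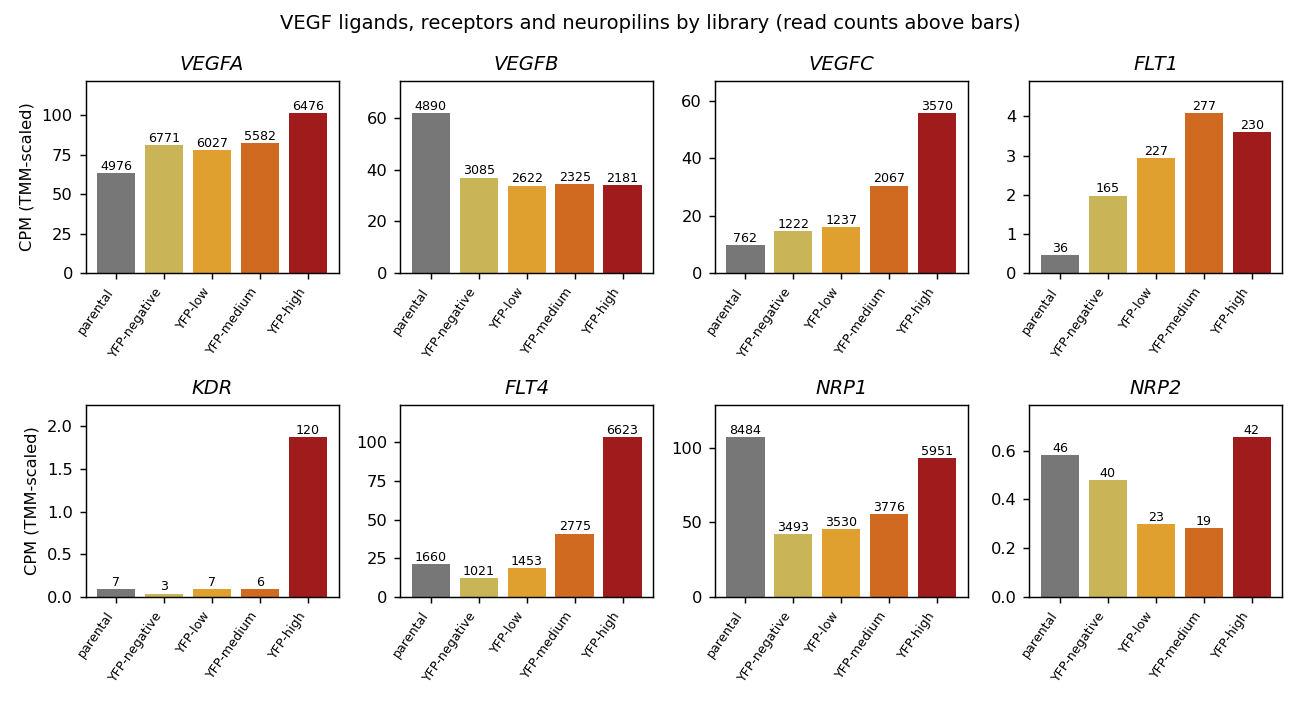
TMM-scaled level in CPM (vertical axes, from 0) of each of the 8 genes in the 5 libraries (horizontal axes), 1 library per bar, with the read count above each bar and no error bars, since there are no replicates. FLT4 and VEGFC reached 104 and 55.9 CPM in YFP-high cells, KDR had 120 reads there and at most 7 elsewhere, and VEGFB was highest in parental cells at 62.0 CPM.

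FLT4, the receptor VEGFR3 of lymphatic endothelium and the main kinase for VEGFC, had a log2 ratio of 3.03 in YFP-high over YFP-negative cells, with 0.5 CPM added. Its level was 21.0 CPM in parental cells and, along the fractions, 12.2 CPM (negative), 18.8 CPM (low), 40.9 CPM (medium) and 104 CPM (high). The order of the YFP fractions was thus the order of FLT4, while parental cells lay between YFP-low and YFP-medium. Against YFP-negative cells FLT4 was 1.53-fold in YFP-low (1.42 to 1.66, not called), higher by 3.35-fold in YFP-medium (3.11 to 3.60) and by 8.47-fold in YFP-high (7.93 to 9.05). E2F1, measured in the same libraries, stood at 1.54-fold, 3.41-fold and 9.39-fold over YFP-negative cells. FLT4 was also called at both upper steps, alone among the 8 genes in the first (2.89% of all genes called) and with KDR in the second (9.25% of all genes called higher), at 2.18-fold in YFP-medium over YFP-low (2.05 to 2.32) and 2.53-fold in YFP-high over YFP-medium (2.42 to 2.65). The call between YFP-medium and YFP-low ended with total counts, at a log2 ratio of 0.98, and with the deposited TPM, at 1.00 after rounding. Of the 15109 analysed genes, 97.5% had a lower log2 ratio than FLT4 in YFP-high against YFP-negative cells. Outside the fractions FLT4 and E2F1 had opposite signs: YFP-negative cells had 1.72-fold less FLT4 than parental cells (1.59 to 1.86, not called) and 1.23-fold more E2F1.

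VEGFC, the lymphatic growth factor that FLT4 binds, had 9.66 CPM in parental cells and, along the fractions, 14.6 CPM (negative), 16.0 CPM (low), 30.5 CPM (medium) and 55.9 CPM (high). Its level was higher at every step of YFP, as it was for FLT4, NRP1 and 24.1% of all analysed genes. Against YFP-negative cells it was 1.09-fold in YFP-low (1.01 to 1.18, not called), higher by 2.08-fold in YFP-medium (1.94 to 2.24) and by 3.81-fold in YFP-high (3.57 to 4.07). The YFP-medium call ended with total counts (log2 ratio 0.82), with 2 CPM added in place of 0.5 and with the deposited TPM (0.92). On the log2 scale with 0.5 CPM added, VEGFC in YFP-low had reached 0.06 of its YFP-high ratio and in YFP-medium 0.54 of it, and FLT4 0.20 and 0.56.

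KDR, the receptor VEGFR2 that carries most VEGFA signalling in endothelium, was barely detected outside YFP-high cells. It had 7 reads in parental cells and, along the fractions, 3 (negative), 7 (low), 6 (medium) and 120 (high). The last equals 1.88 CPM, whereas 3 reads in YFP-negative cells equal 0.0360 CPM. The KDR ratio of YFP-high over YFP-negative cells was 52.2 (17.4 to 257), over YFP-medium cells 21.2 (9.46 to 58.9) and over parental cells 21.2 (9.96 to 53.8). The 4 lower libraries did not differ beyond counting error between neighbours in the order of levels. In bulk libraries a difference in the number of cells that express KDR and one in the RNA per cell cannot be told apart, and the same holds for the other genes. KDR was not called with 2 CPM added, and it did not pass a filter of 5 CPM or of 1 TPM.

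FLT1, the receptor VEGFR1, which binds VEGFA and VEGFB and also occurs as a soluble decoy that gene counts do not part from the membrane form, was low throughout. Its reads numbered 36 in parental cells and, along the fractions, 165 (negative), 227 (low), 277 (medium) and 230 (high). The level was highest in YFP-medium cells, at 4.09 CPM, and the 3.60 CPM of YFP-high cells did not differ from it beyond counting error. Against YFP-negative cells FLT1 stood at 1.48-fold in YFP-low (1.21 to 1.82), 2.07-fold in YFP-medium (1.70 to 2.52) and 1.82-fold in YFP-high (1.48 to 2.24), each with a log2 ratio below 1 once 0.5 CPM was added and so not called.

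VEGFA, the principal angiogenic ligand, had 63.1 CPM in parental cells and, along the fractions, 81.2 CPM (negative), 77.9 CPM (low), 82.4 CPM (medium) and 101 CPM (high). YFP-high cells thus held the most and parental cells the least, and YFP-medium and YFP-negative cells did not differ beyond counting error, at a log2 ratio of 0.02 that was -0.20 with total counts and -0.09 with TPM. The ratio of YFP-high over YFP-negative cells was 1.25 (1.21 to 1.29), not called, with a log2 ratio of 0.32 that was 0.05 with total counts. VEGFB, a ligand of FLT1 linked to heart and fat tissue, had 62.0 CPM in parental cells and, along the fractions, 37.0 CPM (negative), 33.9 CPM (low), 34.3 CPM (medium) and 34.1 CPM (high). Over the YFP-positive fractions VEGFB varied by no more than counting error, and YFP-high over YFP-negative cells gave 0.923 (0.873 to 0.975).

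NRP1, the neuropilin that binds VEGFA and SEMA3A, had 108 CPM in parental cells and, along the fractions, 41.9 CPM (negative), 45.6 CPM (low), 55.7 CPM (medium) and 93.1 CPM (high). Against YFP-negative cells it was 2.22-fold higher in YFP-high (2.13 to 2.32), and 1.33-fold in YFP-medium (1.27 to 1.39) and 1.09-fold in YFP-low (1.04 to 1.14), both not called. The YFP-high call ended with total counts (log2 ratio 0.88) and with the deposited TPM (0.99). NRP1 in YFP-high cells stayed below its parental level, at 0.866-fold (0.837 to 0.895). NRP2, which binds VEGFC and SEMA3F, had 46 reads in parental cells and, along the fractions, 40 (negative), 23 (low), 19 (medium) and 42 (high). All 5 lay below 1 CPM, and neighbours in the order of levels did not differ beyond counting error. YFP-high over YFP-medium cells, the ends of that order, gave a NRP2 ratio of 2.34 (1.33 to 4.27).

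**Figure D2:**
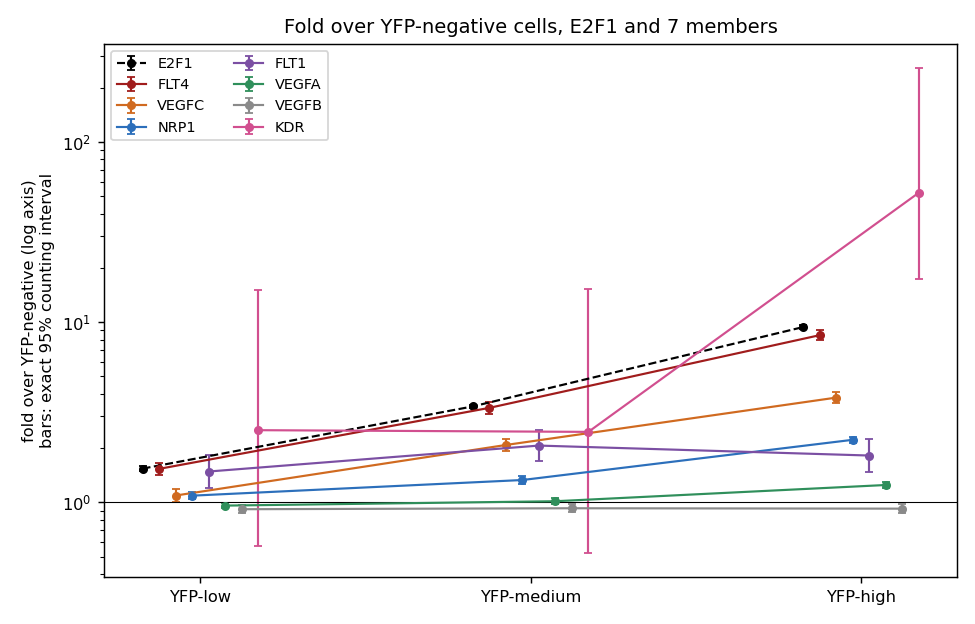
Fold over the YFP-negative library (vertical log axis) of E2F1 (dashed) and of the 7 analysed genes in YFP-low, YFP-medium and YFP-high cells (horizontal axis, points set slightly apart), with bars for the exact 95% counting interval. FLT4 lies next to E2F1 in each fraction and reaches 8.47-fold, VEGFC reaches 3.81-fold, VEGFA and VEGFB stay near 1, and KDR leaves its wide low-count intervals in YFP-high cells.

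Promoter windows are shown because E2F1 is the driven factor and VEGFC, KDR and FLT1 differ in how their levels follow it. RefSeq windows of build GRCh38.p14, from 250 bases before the annotated start to 50 bases after it, were matched for 5 of the 8 genes: VEGFB, VEGFC, FLT1, KDR and NRP2. The deposited files name hg19, another build, so no other coordinates are given. Searched on both strands were the E2F-type words TTTCGCGC, TTTGGCGC, TTTCCCGC and TTTGCCGC, the hypoxia response core ACGTG, the GC box GGGCGG and the TATA word TATAAA. The windows printed here run 5′ to 3′ on the gene's strand, with GC boxes and the TATA word, on either strand, in capitals. VEGFC lies at chr4:176792873-176793172 on the minus strand, KDR at chr4:55125546-55125845 on the minus strand and FLT1 at chr13:28495079-28495378 on the minus strand.
VEGFC: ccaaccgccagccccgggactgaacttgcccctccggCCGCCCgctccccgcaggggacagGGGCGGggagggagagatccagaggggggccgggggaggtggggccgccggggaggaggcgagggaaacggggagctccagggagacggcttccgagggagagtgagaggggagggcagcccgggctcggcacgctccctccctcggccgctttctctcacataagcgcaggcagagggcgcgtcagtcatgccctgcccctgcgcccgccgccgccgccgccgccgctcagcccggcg
KDR: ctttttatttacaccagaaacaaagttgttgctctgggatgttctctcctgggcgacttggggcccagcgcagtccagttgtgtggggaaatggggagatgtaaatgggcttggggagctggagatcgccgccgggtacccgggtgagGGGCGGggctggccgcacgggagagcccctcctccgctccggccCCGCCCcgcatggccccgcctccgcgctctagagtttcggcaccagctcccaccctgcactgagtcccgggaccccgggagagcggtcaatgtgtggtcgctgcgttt
FLT1: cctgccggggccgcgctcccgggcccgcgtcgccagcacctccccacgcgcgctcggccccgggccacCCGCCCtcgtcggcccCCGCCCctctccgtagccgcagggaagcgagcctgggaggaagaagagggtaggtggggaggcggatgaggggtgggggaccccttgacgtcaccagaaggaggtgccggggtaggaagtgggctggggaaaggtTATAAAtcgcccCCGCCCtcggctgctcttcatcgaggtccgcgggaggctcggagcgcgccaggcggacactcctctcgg

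Of the 5 windows 0 held any of the 4 E2F-type words, which 3.31% of all 35116 windows held, and 4.66% of the 14789 windows of analysed genes. The hypoxia core was in 0 of the 5, against 21.4% of all windows and 24.7% of those of analysed genes. The GC box was in 5 of the 5, against 45.0% of all windows and 64.7% of those of analysed genes. GC boxes numbered 2 in VEGFC, 2 in KDR, 3 in FLT1, 3 in NRP2 and 9 in VEGFB, counted with overlaps. The TATA word was in FLT1 only, starting 31 bases before the annotated start, and in 11.5% of all windows and 6.45% of those of analysed genes. The windows are rich in G and C, from 65.0% in KDR to 84.7% in VEGFB, against a median of 58.7% over all windows. The absence of these letters in these windows says nothing of other sites or other promoters of the genes.

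Parental cells differed from YFP-negative cells in several of these genes, although both had the lowest E2F1 levels. NRP1 was 2.57-fold lower in YFP-negative than in parental cells (2.47 to 2.67), and FLT1 was 4.33-fold higher (3.01 to 6.40). These were the 2 of the 8 genes called in this comparison, where 2.15% of all genes were called higher and 2.93% lower, 5.08% in all. The FLT1 call ended with 2 CPM added, at a log2 ratio of 0.70. VEGFB was at 0.597-fold (0.570 to 0.624), VEGFC at 1.52-fold (1.38 to 1.66) and VEGFA at 1.29-fold (1.24 to 1.33) in YFP-negative over parental cells, none of them called. With parental cells in place of YFP-negative cells as the comparison for YFP-high, 4 of the 8 were higher and 0 lower, with 21.3% of all genes called higher and 14.9% lower, 36.2% in all. Of all calls 58.9% were higher ones there, and 45.3% with total counts, which shifts the median gene by -0.23. FLT1 was 7.89-fold (5.53 to 11.5), VEGFC 5.78-fold (5.35 to 6.26) and FLT4 4.92-fold higher (4.67 to 5.20) than in parental cells, and NRP1 was not called. VEGFB stood at 0.550-fold (0.523 to 0.579), and passed as lower with total counts, at a log2 ratio of -1.08. The construct, the line's history and the sort cannot be told apart in YFP-negative against parental cells.

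Levels of different genes were compared in the authors' TPM, which corrects for transcript length and carries no counting interval here. Among the kinases FLT4 held 98.5% of the summed TPM in parental cells, 92.2% in the negative and 96.4% in the high fraction. The summed level of the 3 kinases was 8.13 TPM in parental cells and, along the fractions, 5.09 TPM (negative), 7.63 TPM (low), 15.3 TPM (medium) and 37.8 TPM (high). So FLT4 was the leading transcript of the 3 kinases in all 5 libraries. In YFP-high cells KDR, at 0.731 TPM, and FLT1, at 0.634 TPM, stayed minor beside its 36.4 TPM.

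The leading ligand transcript differed between libraries. VEGFB led in parental cells and in the negative, low and medium fractions. In parental cells it had 103 TPM, against 37.3 TPM of VEGFA and 13.6 TPM of VEGFC. VEGFC led in YFP-high cells, with 72.5 TPM, against 55.3 TPM of VEGFA and 52.6 TPM of VEGFB. VEGFC made up 8.79% of the summed TPM of the 3 ligands in parental cells and, along the fractions, 15.8% (negative), 18.0% (low), 28.8% (medium) and 40.2% (high). The VEGFB share was 67.0% in parental cells and, along the fractions, 47.4% (negative), 45.2% (low), 38.4% (medium) and 29.2% (high). Of the neuropilins, NRP1 held 98.5% to 99.4% of the summed TPM in every library.

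**Figure D3:**
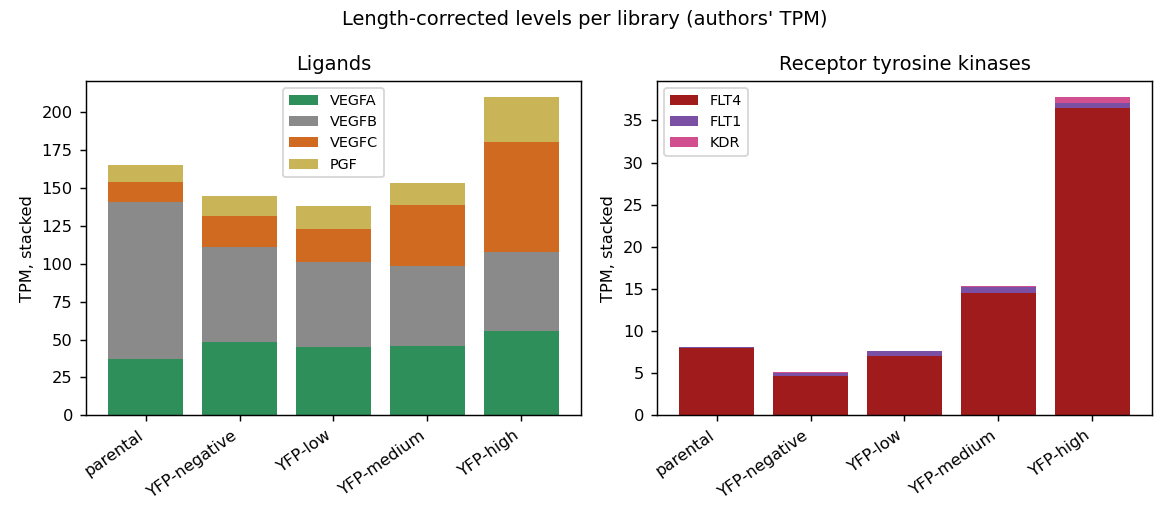
Authors' TPM per library (vertical axes, stacked from 0; 5 libraries on the horizontal axes) of the ligands with PGF on the left and of the 3 receptor tyrosine kinases on the right, with no error bars. The VEGFC segment grows to 72.5 TPM in YFP-high cells, and nearly all of the receptor bars is FLT4.

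The genes whose 4 log2 ratios against YFP-negative cells (parental, YFP-low, YFP-medium and YFP-high) lay nearest to those of VEGFC, FLT4 or NRP1 were sought among 12240 genes with at least 5 CPM in 1 library. Nearest to FLT4 were GAS1, PDZD4 and PSD2, at Euclidean distances of 0.32, 0.34 and 0.37 on the log2 scale. Nearest to VEGFC were PLEKHF1, GRK4 and SLC22A15, at 0.19, 0.22 and 0.26. Nearest to NRP1 were GLIS2, CRISPLD1 and ZNF618, at 0.18, 0.33 and 0.36. None are given for KDR, whose log2 ratios are set largely by the 0.5 CPM added. The profiles rest on 5 libraries and share the YFP-negative library, so the distances only describe these libraries.

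Around the 8 genes, 12 lists of ligand, receptor, regulator and marker genes were counted in YFP-high against YFP-negative cells, each set beside a median log2 ratio of -0.04 over all analysed genes. Over all lists 35 of 109 analysed entries were called, 27 higher and 8 lower, or 32.1%, close to the 31.7% of all analysed genes. With total counts 21 were higher and 16 lower. Such a share is no result about the lists as a whole, and each is described by its own counts. Those counts stand beside 20.5% of all analysed genes called higher and 11.3% called lower in the same comparison.

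Of 9 other genes of the VEGF and angiopoietin system 3 were higher, 3 lower and 3 neither, with a median of -0.79; with total counts PGF was no longer called and THBS2 passed as lower. VASH1 and VASH2, the vasohibins, were 4.08-fold (3.90 to 4.27) and 4.11-fold higher (3.78 to 4.47). THBS1, the angiogenesis inhibitor thrombospondin-1, was 2.99-fold lower (2.94 to 3.04), and CYR61, a matrix protein that promotes angiogenesis, 4.59-fold lower. PGF, the placental ligand of FLT1, was named after its values were seen. It had 8.57 CPM in parental cells and, along the fractions, 10.6 CPM (negative), 12.3 CPM (low), 12.6 CPM (medium) and 25.6 CPM (high), 2.42-fold higher in YFP-high than in YFP-negative cells (2.23 to 2.63); with total counts its log2 ratio was 0.97. FIGF, the older symbol of VEGFD and the other ligand of FLT4, had 4 reads in YFP-medium cells and 0 in the other 4 libraries, where the limit of 3 reads allows up to 0.0360 to 0.0469 CPM.

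VEGFC is secreted as a precursor that ADAMTS3 cleaves with CCBE1 as cofactor, after furin-type proteases. Of 7 analysed genes of this processing 2 were higher and 0 lower (median 0.07). PCSK5, a furin-type protease, was 2.03-fold higher (1.91 to 2.17), a call that ended with total counts, with 2 CPM added and with TPM. ADAMTS3 had 46.0 CPM in parental cells and, along the fractions, 44.6 CPM (negative), 34.8 CPM (low), 28.8 CPM (medium) and 38.9 CPM (high), and was not called. ADAMTS14 had 3.30 CPM in YFP-high and 0.527 CPM in YFP-negative cells. Both were named after their values were seen. Like KDR, ADAMTS14 passed the filter through the YFP-high library alone. Like 27.9% of all analysed genes, CCBE1 was lower at every step of YFP. Its levels lay in the reverse order of those of VEGFC. They were 74.0 CPM in parental cells and, along the fractions, 59.0 CPM (negative), 49.3 CPM (low), 39.3 CPM (medium) and 30.7 CPM (high). In YFP-high over YFP-negative cells this gave 0.521 (0.494 to 0.549), short of the call, which it passed as lower with total counts and with TPM. FURIN had a log2 ratio of 0.58 and CTSD, the cathepsin D gene, stood at 0.812-fold, both not called.

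The other neuropilin ligands, the class 3 semaphorins, had 1 higher and 1 lower gene among 7, with a median of -0.54. SEMA3F, which signals through NRP2, was 3.85-fold higher (3.66 to 4.04), and SEMA3E, which binds PLXND1 without a neuropilin, 2.45-fold lower (2.20 to 2.72). SEMA3B at 0.596-fold and SEMA3C at 1.07-fold were not called. In YFP-negative against parental cells 5 of these 7 genes were lower, among them SEMA3F and SEMA3E, where 2.93% of all analysed genes were.

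Plexins and neuropilin partners had 5 higher and 0 lower genes among 8, with a median of 1.94. With total counts 2 passed as lower, the adaptor gene GIPC1 at a log2 ratio of -1.06 and the adhesion molecule gene L1CAM at -1.11, both named after their values were seen. PLXNA4, a signalling partner of neuropilins, was 10.5-fold higher (9.06 to 12.3), with 24.8 CPM in YFP-high and 2.36 CPM in YFP-negative cells. NRCAM, an adhesion molecule that associates with neuropilins, was 8.61-fold higher (7.27 to 10.3). PLXND1, the endothelial plexin, had 117 CPM in parental cells and, along the fractions, 139 CPM (negative), 319 CPM (low), 583 CPM (medium) and 599 CPM (high), so most of its difference lay below YFP-high. PLXNA3 was 4.23-fold higher in YFP-high over YFP-negative cells (4.10 to 4.37).

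Of 21 analysed genes of VEGF receptor signalling 8 were higher and 0 lower, beside 20.5% and 11.3% of all analysed genes. With total counts, with 2 CPM added or with TPM 5 of the list were higher. The list's median was 0.53. EGR3, 1 of the 8 and named after its values were seen, passed the filter through the YFP-high library alone. It had 103 reads there (1.61 CPM) and 5 in YFP-negative cells. SPHK1, the sphingosine kinase downstream of KDR, was 5.57-fold (5.38 to 5.76), NFATC1, a calcineurin-dependent transcription factor, 3.29-fold, PRKD1, protein kinase D1, 3.17-fold and VAV2, a signalling protein of the VAV family, 2.64-fold higher. SPHK1 was also called in YFP-low over YFP-negative cells, and in YFP-negative over parental cells.

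Of 17 genes of the hypoxic control of VEGFA 4 were higher and 2 lower (median 0.21). EPAS1, which encodes HIF-2 alpha, was 7.77-fold higher (7.49 to 8.06), with 318 CPM in YFP-high and 41.0 CPM in YFP-negative cells. HIF1A, named after its values were seen, had 648 CPM in YFP-high and 323 CPM in YFP-negative cells, a call that ended with total counts (log2 ratio 0.73), with 2 CPM added and with TPM (0.87). KDM3A and EGLN1 were also higher, and CITED2, a competitor of HIF for its coactivator, was 2.39-fold lower. EGLN3, named after its values were seen, had 3.71 CPM in YFP-high and 4.15 CPM in YFP-negative cells and was not called. VEGFA stood at 1.25-fold in the same libraries. Of 11 genes that act on VEGFA RNA 2 were higher and 0 lower (median 0.31). These were ZFP36L2, an RNA decay factor, at 2.71-fold (2.62 to 2.80) and SRPK1, a kinase of splicing factors linked to VEGFA isoform choice, at 2.57-fold (2.53 to 2.62). ZFP36L1 and ZFP36, of the same decay family as ZFP36L2, stood at 0.542-fold and 1.74-fold, not called; with total counts and with TPM ZFP36L1 passed as lower.

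Endothelial markers were examined because FLT4, KDR and FLT1 mark endothelium. Of 17 markers 10 were analysed, and 1 was higher, 2 lower and 7 neither, with a median of 0.07. Their summed level was 91.6 CPM in YFP-high and 88.6 CPM in YFP-negative cells, and between 73.0 and 88.7 CPM in the other 3 libraries. Markers of the list differed in level. PECAM1, CDH5 and LYVE1 had at most 14 reads in any library, and PECAM1 had 0 reads in YFP-high cells. Others were detected in all 5 libraries, such as EGFL7 with 1050 to 1708 reads and SOX17 with 395 to 636. PROX1 had 165 to 374 reads, VWF 28 to 213 and TEK 39 to 139, all of them named after their values were seen. PROX1 was highest in YFP-high cells, at 5.85 CPM, called over YFP-medium cells but not over YFP-negative cells. LYVE1 and EMCN had 3 reads each in YFP-high cells and 0 in the 4 other libraries. SOX18, a transcription factor of endothelium, was 9.23-fold higher (7.75 to 11.1), with 16.0 CPM in YFP-high and 1.74 CPM in YFP-negative cells. ROBO4, an endothelial guidance receptor, was 2.67-fold lower, a call that ended with 2 CPM added, and ENG, the co-receptor endoglin, 2.03-fold lower, a call that ended with DESeq2 size factors and with 2 CPM added. ERG stood at 1.92-fold, not called. In YFP-high over parental cells ROBO4 stood at 1.14-fold (0.883 to 1.47) and ENG at 0.968-fold (0.901 to 1.04), both not called. SOX18 was 2.85-fold higher there (2.55 to 3.19). Of the 10 analysed markers 3 were higher in that comparison (SOX18, ERG and PROX1) and 2 lower (VWF and TEK). Among all genes 21.3% were called higher there and 14.9% lower.

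Few markers of other cell types were called in YFP-high against YFP-negative cells, where 20.5% of all genes were called higher and 11.3% lower. Osteoblast markers had 0 of 5 analysed genes called (median -0.37), with COL1A1 at 0.598-fold, ALPL at 0.759-fold, SPP1 at 0.757-fold and SPARC at 0.787-fold; COL1A1 passed as lower with total counts, at a log2 ratio of -1.01. Leukocyte markers had 0 of 1 called (median 0.40) and a summed level of 3.69 to 5.83 CPM over the 5 libraries. The summed level was 454 to 578 CPM for epithelial and 158 to 287 CPM for neuronal markers. Epithelial markers had 1 of 6 higher (median -0.45), EPCAM at 3.52-fold, with CDH1 at 0.491-fold, KRT18 at 0.706-fold and KRT8 at 1.05-fold not called; CDH1 passed as lower with total counts. Neuronal markers had 0 of 7 called (median -0.01), with NEFL at 2.00-fold, SYP at a log2 ratio of 0.82, MAP2 at 0.559-fold and RBFOX3 at 1.31-fold; NEFL passed as higher with DESeq2 size factors and MAP2 as lower with total counts. In YFP-high against parental cells 1 of 5 osteoblast markers was lower, COL1A1 at 4.36-fold. Of 6 epithelial markers 1 was higher there (EPCAM) and 2 lower (KRT5 and KRT14, named after their values were seen). Of 7 neuronal markers 2 were higher (RBFOX3 and SYP) and 0 lower, and 0 of 1 leukocyte marker was called. Among all genes 21.3% were called higher and 14.9% lower in that comparison. What part other cell types had in the VEGF genes was not tested.

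**Figure D4:**
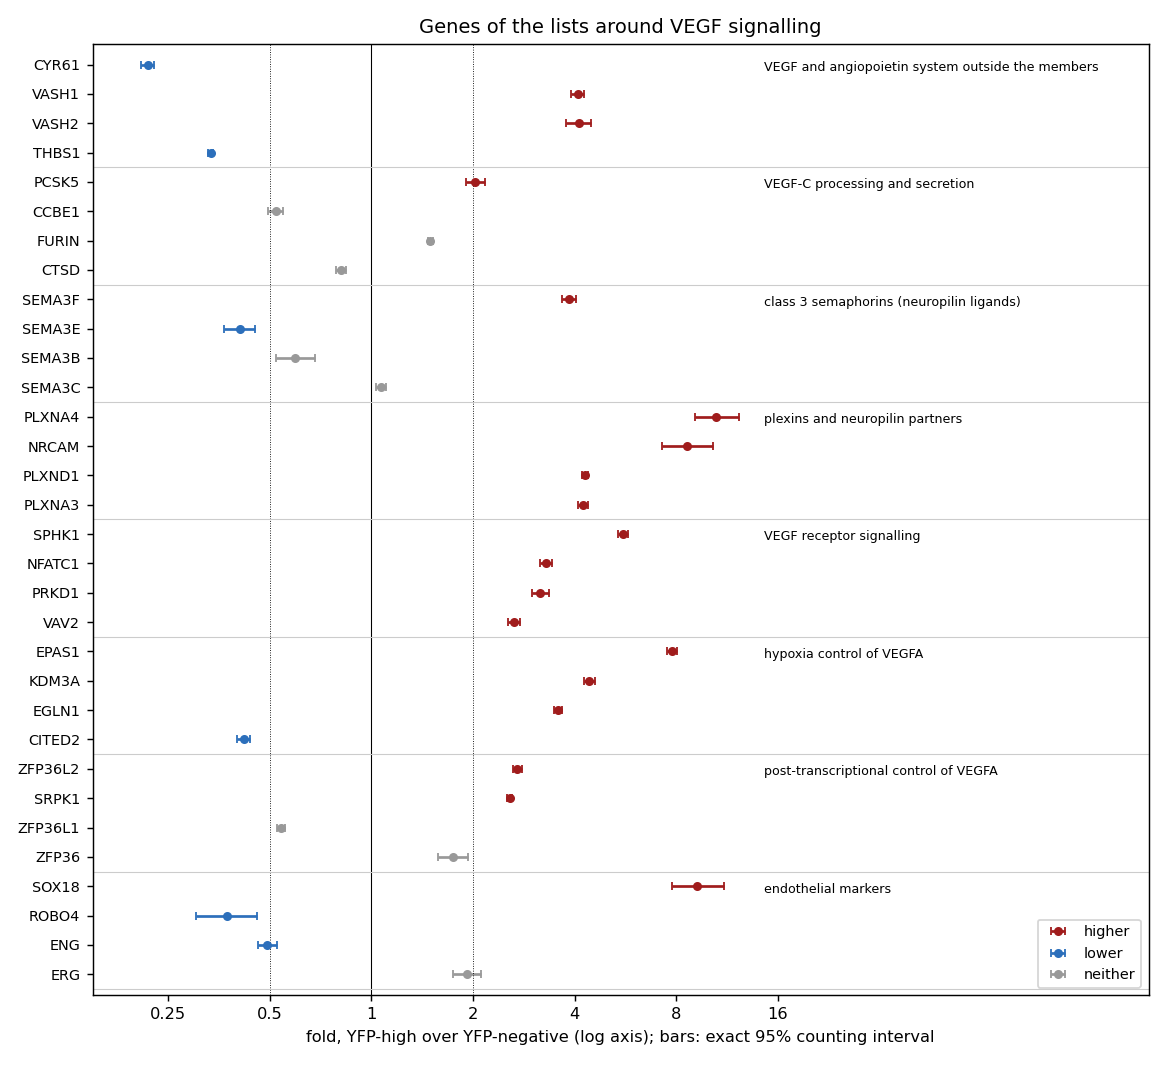
Fold of YFP-high over YFP-negative cells (horizontal log axis, bars for the exact 95% counting interval) of up to 4 genes from each of 8 lists (vertical axis, grouped), coloured by call; dotted lines mark 2-fold. The named plexins and NRCAM lie at 4.23-fold to 10.5-fold, EPAS1 at 7.77-fold and SOX18 at 9.23-fold, whereas CYR61, THBS1, SEMA3E, CITED2, ROBO4 and ENG lie on the lower side.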

How the data were processed

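RNA of 5 U2OS libraries, 1 per group, was analysed from 2 deposited tables. The authors deposited raw read counts per gene name and, in a table of its own, TPM values scaled to 1000000 per library, by a tool that no source used here names. Per the submitters' processing notes, hg19 was the genome build, and the tools, in no stated order, included HISAT2 2.0.3 and HTSeq 0.6.0, besides Trimmomatic 0.36, bcl2fastq and CASAVA 1.8.2. No source used here gives the annotation or the strand setting. Antisense genes that GENCODE 29 places over exons of VEGFA, NRP1 and NRP2 (188, 561 and 147 shared exon bases) cannot be told apart from them, nor can isoforms.

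Rows of unassigned reads and a row named unknown, at most 0.000730% of a library's reads, were left out of the library sizes. Gene rows held 75.7% to 77.7% of counted reads. TMM scaling used edgeR 4.0.16 in R 4.3.3, and its factors lay between 0.904 (YFP-high) and 1.09 (YFP-negative). Each fold's 95% interval is an exact Clopper-Pearson interval of the first count among the sum of the pair; PCR copies of a read are not separate molecules. Zeros are limited by 3 reads per library. Comparisons were each YFP-positive fraction against YFP-negative, adjacent steps, and YFP-negative and YFP-high against parental. The calling rule was tested on simulated data in which 200 genes had known changes. These counts were drawn with counting error only, so the simulation cannot show how the rule fares with spread between libraries. Intervals came from scipy 1.17.1 in Python 3.11.15, with pandas 2.3.3, numpy 2.4.6 and matplotlib 3.10.9.

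The members and lists were chosen with earlier results of these data known. Named are all 8 genes, E2F1, up to 4 genes per list with at least 5 CPM and the largest change, and the 3 nearest profiles per gene called in YFP-high against YFP-negative cells, except KDR. The alternatives replaced TMM by total counts or by size factors from DESeq2 1.42.0, dropped the filter or set it to 5 CPM, added 2 CPM, took the TPM by size alone, or called at 1.5-fold.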

Additional observations from a re-analysis of the deposited data

How the results depend on the processing

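How many of the 8 genes were called depended on the setting, while 0 called log2 ratios changed sign under any of the 7 alternatives. The log2 ratios themselves can change under 4 of these, and moved beyond the counting interval of the main value in 23 of 49 with total counts, 18 of 35 with TPM, 7 of 49 with 2 CPM added and 1 of 49 with DESeq2 size factors. With DESeq2 size factors and without a filter the counts of called genes were as reported in all 7 comparisons. In YFP-high against YFP-negative cells, 4 genes were called, and 2 with TPM (VEGFC and FLT4), where KDR did not pass the filter of 1 TPM. There 3 were called with total counts (NRP1 lost), and 3 with 2 CPM added or a filter of 5 CPM (KDR lost), and 5 by the 1.5-fold rule (FLT1 gained). In YFP-medium against YFP-negative cells, 2 were called and 1 (FLT4) with total counts, with 2 CPM added or with TPM. FLT1 was gained there by the 1.5-fold rule. In YFP-low against YFP-negative cells, 0 were called and 1 (FLT4) by the 1.5-fold rule. In YFP-medium against YFP-low cells, 1 was called (FLT4), 0 with total counts or TPM, and 2 by the 1.5-fold rule. In YFP-high against YFP-medium cells, 2 were called (KDR and FLT4), 1 with a filter of 5 CPM, 2 CPM added or TPM, and 4 by the 1.5-fold rule. In YFP-negative against parental cells, 2 were called, 1 (NRP1) with a filter of 5 CPM, 2 CPM added or TPM, and 4 by the 1.5-fold rule. In YFP-high against parental cells, 4 were called, and 2 (VEGFC and FLT4) with a filter of 5 CPM or TPM. There KDR was lost with 2 CPM added, and VEGFB was gained as lower with total counts. The 1.5-fold rule gained VEGFB as lower and VEGFA as higher. List entries called in YFP-high against YFP-negative cells numbered 35, and 67 by the 1.5-fold rule. For counts lost to a stricter filter, fewer genes analysed is the cause; for the others the cause was not tested.

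Over all genes, the 1.5-fold rule called 1301 genes in YFP-low (main rule 326), 4656 in YFP-medium (1809) and, for YFP-high, 8261 (4797) against YFP-negative cells. It called 1990 in YFP-medium against YFP-low (437), 4333 in YFP-high against YFP-medium (1599), 2361 in YFP-negative (767) and 8798 in YFP-high (5469) against parental cells. With 2 CPM added the counts were 212 in YFP-low against YFP-negative, 242 in YFP-medium against YFP-low, 1013 in YFP-high against YFP-medium and 411 in YFP-negative against parental cells. No paired analysis was possible because each group has 1 library. For the same reason no library could be left out. Depth left KDR with at most 7 reads in the 4 libraries other than YFP-high, where differences were not detectable at this depth, and NRP2 with 19 to 46 reads.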
